A study of Rattus norvegicus with 15 samples.

Results

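The genes described here encode the enzymes that write, erase and read chemical marks on histones and DNA, measured in the ventral tegmental area of the rat midbrain. They were taken as all genes named with 1 symbol by the array annotation whose symbol begins with Hdac, Sirt, Kdm, Kmt, Kat, Dnmt, Setd, Prmt or Brd and a digit, or is Tet1, Tet2, Tet3, Ezh1 or Ezh2. That gave 76 genes of the 14217 with 1 symbol, each represented by its brightest probe set, the one with the highest mean over all 15 arrays. The series title names alcohol-preferring (P) rats, a line selected for voluntary ethanol intake, and drinking beyond control. Per the labels, 7 rats had ethanol treatment and 8 were age-matched controls on water, with 1 Affymetrix array for each animal. All values are log2 expression levels. The sources used here do not give the animals' age, sex or litter, the ethanol dose or the interval before tissue collection.

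Histone tails and cytosines carry small groups that change how tightly DNA is packed and which proteins bind it. Acetyltransferases open chromatin by adding acetyl groups from acetyl-CoA, deacetylases remove them, and bromodomain proteins bind the acetylated tails. Methyltransferases use S-adenosylmethionine to place activating or repressive methyl marks, and demethylases take them off. Not every member acts on chromatin: Setd3 methylates actin, Sirt3, Sirt4 and Sirt5 work in mitochondria, several Prmt enzymes also methylate RNA-binding proteins, and Brd3os is a transcript from the strand opposite Brd3 that matched only by its symbol.

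The mean level of 73 of the 76 genes reached the 40th percentile of all non-control probe sets, a log2 value of 6.94, and these 73 were tested. The other 3 were dim and were not tested: the de novo DNA methyltransferase Dnmt3b averaged 5.53, the lysine demethylase Kdm4c 5.40 and the mitochondrial sirtuin Sirt4 6.58 over all arrays. Each difference below is the ethanol mean less the water mean in log2 units, with the standard error (SE) and p-value of limma, a linear model fitted to all 18625 probe sets that passed the same level. An adjusted p below 0.05 (Benjamini-Hochberg over the 18625) is called a change.

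Of the 73 genes tested, 1 changed. Kdm7a, a JmjC-domain demethylase that removes repressive methyl marks from histone tails, fell in the ethanol rats (log2 -0.23, SE 0.051, adjusted p = 0.0370). That is 1.37% of the members, against 0.929% of all probe sets tested. At an unadjusted p below 0.05 there were 10 members, or 13.7%, against 12.1% of all probe sets tested, so the share among these genes was close to the background. Of the 10, 3 were higher in ethanol rats (4.11% of members, against 6.67% of all probe sets) and 7 were lower (9.59%, against 5.42%). For 9 of the 10, every ethanol rat was above, or every one below, the mean of the controls. Because the 10 were picked by p on this same contrast, that count describes them and is no further support. The groups overlapped in every one of the 73 genes, while 0.623% of all probe sets tested had groups that did not overlap.

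**Figure D1:**
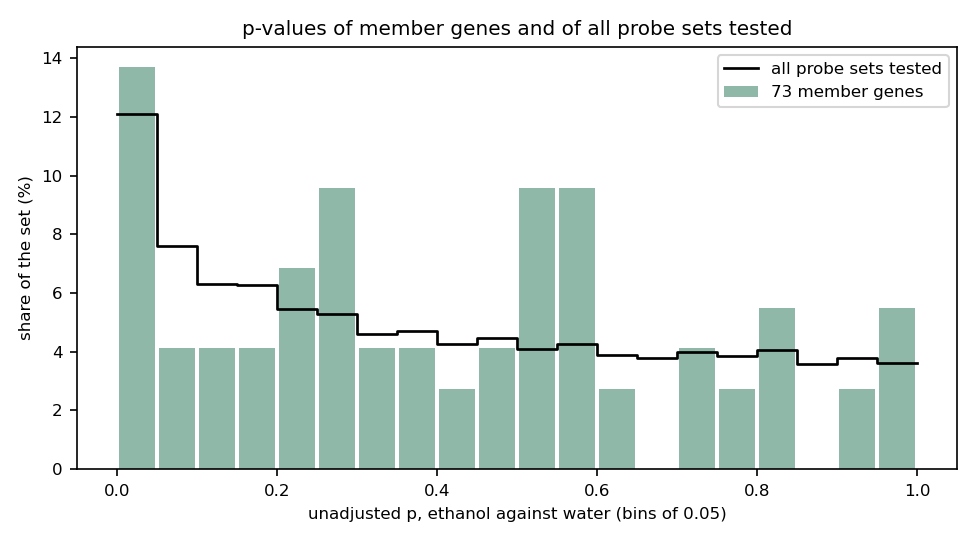
Share of each set in bins of 0.05 of the unadjusted p for ethanol against water. Bars are the 73 member genes and the black line all 18625 probe sets tested. The first bin holds 13.7% of the members and 12.1% of all probe sets, and no other bin of the members reaches 10 genes.

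Differences among these genes were small. Their median was 0.017 log2 units, against 0.0062 over all probe sets tested, and 46 of the 73 were positive in sign (63.0%, against 53.3%). The median size regardless of sign was 0.038, against 0.052 for all probe sets, and 64 of the 73 differed by less than 0.1. The members also varied little from rat to rat, with a median standard deviation (SD) within groups of 0.091, against 0.11 for all probe sets. Each member was the brightest probe set of its gene, while all probe sets tested include dimmer ones of the same genes. The part of that choice in the smaller sizes and SDs was not tested. In 67 of the 73 the 95% interval of the difference stayed within 0.3 log2 units of 0 (91.8%, against 86.2% of all probe sets). The other 6 were Kdm7a, Ezh1, Ezh2, Setd4, Sirt2 and Kat2b, and in Ezh1, Ezh2 and Setd4 the interval reached past 0.5.

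**Figure D2:**
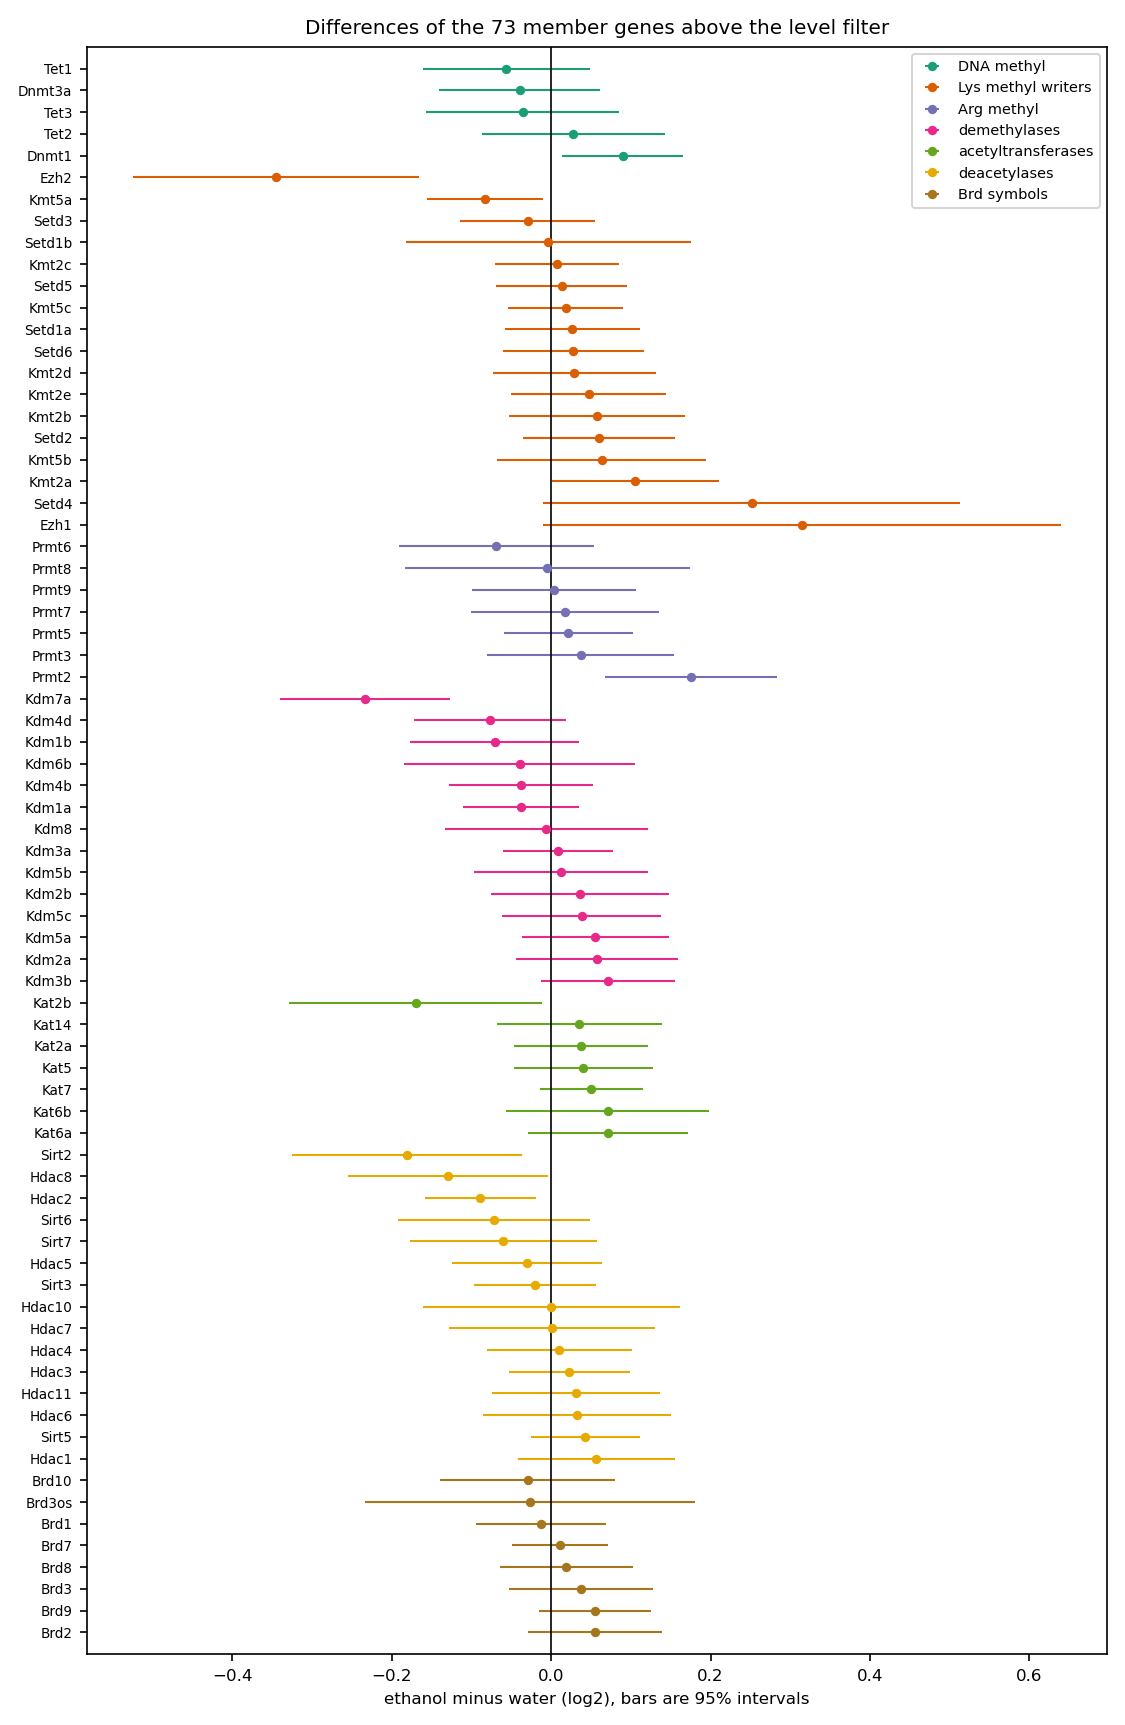
Difference of each of the 73 tested genes, ethanol minus water in log2 units, ordered by role, with bars for the 95% interval. Most points lie within 0.1 of 0, and Ezh2 (-0.34) and Kdm7a (-0.23) lie farthest to the left, Ezh1 (0.31) and Setd4 (0.25) farthest to the right.

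Lysine demethylases, which erase methyl marks from histone tails, were split in sign: of 14 tested genes, 7 were higher and 7 lower, with a median of 0.0010. Kdm7a was the single one past the threshold. Its log2 level ran from 8.68 to 8.90 in ethanol rats, with a median of 8.74. In water rats it ran from 8.84 to 9.13, with a median of 8.99. Only water rat 1, at 8.84, lay inside the ethanol range, and all 7 ethanol rats were below the water mean. The means were 8.78 ± 0.092 (SD, n = 7) and 9.01 ± 0.10 (SD, n = 8), an ethanol level of 0.850 times that in water rats (95% interval of the log2 difference -0.34 to -0.13). Kdm7a has 1 probe set on the array, so no second measurement of it was at hand. Leaving out a single array ended the call for 10 of the 15 arrays, those of ethanol rats 1, 6, 7 and 8 and of water rats 2, 3, 4, 6, 7 and 8. Over the 15 fits the adjusted p reached 0.0937 and the difference ran from -0.26 to -0.22, and without the level filter the adjusted p was 0.0589.

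None of the other 13 demethylases reached an unadjusted p of 0.05 on its brightest probe set. Kdm3b, which acts on the same repressive mark as its relative Kdm3a, was at 0.072 (SE 0.040), and Kdm4d was at -0.076 (SE 0.045). Kdm1a, the flavin-dependent demethylase of the CoREST complex that represses neuronal genes outside neurons, was at -0.038 (SE 0.034). Kdm6b, which removes the Polycomb mark, was at -0.040 (SE 0.068). Additional probe sets of Kdm5b and Kdm5c, erasers of an activating promoter mark, gave other values than the brightest ones. The brightest Kdm5b probe set was at 0.012 and another was at 0.12 (SE 0.037, adjusted p = 0.174). For Kdm5c the brightest was at 0.038, and the others were at -0.12 (SE 0.043, adjusted p = 0.274) and 0.15 (SE 0.086, adjusted p = 0.499), so its probe sets disagreed in sign.

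Ezh2 and Ezh1, the alternative catalytic subunits of the Polycomb complex that places a repressive methyl mark on histone tails, had the largest differences of all members and opposite signs. Ezh2 has 3 probe sets. On the brightest, ethanol rats ran from 7.41 to 7.79 with a median of 7.68, and water rats from 7.67 to 8.33 with a median of 8.04. Water rat 8, at 7.67, was the only control inside the ethanol range. The difference was -0.34 (SE 0.085, 95% interval -0.52 to -0.17), which did not pass (adjusted p = 0.0753).

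The second probe set of Ezh2, which the choice of the brightest leaves out, did pass. On it, ethanol rats ran from 7.20 to 7.56 with a median of 7.38, and water rats from 7.56 to 8.12 with a median of 7.81. The groups met at their edges, with water rat 8 again the lowest control and just inside the ethanol range. The means were 7.39 ± 0.13 (SD, n = 7) and 7.81 ± 0.17 (SD, n = 8), an ethanol level of 0.749 times that in water rats (log2 -0.42, SE 0.074, adjusted p = 0.0101). This call held in all 15 fits with 1 array left out (adjusted p from 0.00410 to 0.0261). The brightest probe set passed only without water rat 8 (adjusted p = 0.0222). The third probe set averaged 5.62, below the level filter, and was not tested.

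Ezh1 is the form kept by cells that no longer divide. On its brightest probe set 6 of the 8 water rats ran from 10.49 to 10.63, close to the ethanol range of 10.54 to 10.70. Water rats 4 and 6 stood apart, at 9.47 and 9.73. The group medians were 10.63 in ethanol and 10.51 in water rats, so the mean difference of 0.31 (SE 0.15, adjusted p = 0.430) rested mainly on those 2 animals. On the second Ezh1 probe set the difference was 0.016 (SE 0.060, adjusted p = 0.939). There, water rats 4 and 6, at 8.62 and 8.60, were again the lowest of all 15 animals, but by a narrow margin.

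**Figure D3:**
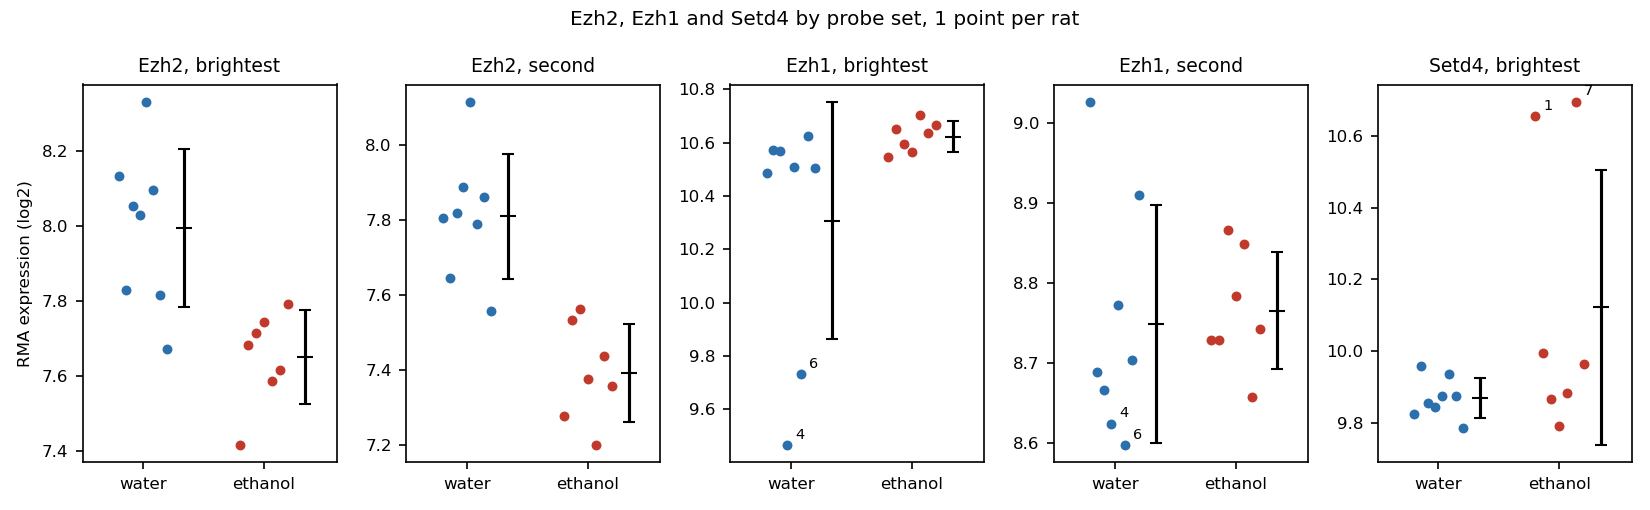
Log2 level of Ezh2 and Ezh1 on their 2 brightest probe sets and of Setd4 on its only one, 1 point per rat, with the mean and SD beside each group (n = 8 water, n = 7 ethanol; axes differ and do not start at 0). Ethanol rats lie lower on both Ezh2 probe sets, water rats 4 and 6 stand apart on the brightest Ezh1 probe set, and ethanol rats 1 and 7 on that of Setd4.

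The promoters of Ezh2 and Kdm7a are shown because these were the genes with a probe set past the threshold. Each window covers 250 bases before to 50 after the start site, from RefSeq on the GRCr8 assembly, read 5′ to 3′ on the gene's strand. Capitals mark matches, on both strands, to CCAAT (the NF-Y box) and to TTTNNCGC (the core bound by E2F factors, which act in the cell cycle). The CRE motif TGACGTCA was searched as well and is in neither window. Ezh2 lies at chr4:77687134-77687433, minus strand, and for Kdm7a the most upstream of 4 listed starts was taken, at chr4:68992930-68993229, minus strand. Which of the 4 starts of Kdm7a is used in this tissue was not tested.
Ezh2: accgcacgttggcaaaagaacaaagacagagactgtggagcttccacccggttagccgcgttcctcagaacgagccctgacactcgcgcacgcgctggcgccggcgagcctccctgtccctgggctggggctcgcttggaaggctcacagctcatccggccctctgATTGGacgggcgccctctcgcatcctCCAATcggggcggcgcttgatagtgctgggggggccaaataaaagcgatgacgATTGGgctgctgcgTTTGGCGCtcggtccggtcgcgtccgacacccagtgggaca
Kdm7a: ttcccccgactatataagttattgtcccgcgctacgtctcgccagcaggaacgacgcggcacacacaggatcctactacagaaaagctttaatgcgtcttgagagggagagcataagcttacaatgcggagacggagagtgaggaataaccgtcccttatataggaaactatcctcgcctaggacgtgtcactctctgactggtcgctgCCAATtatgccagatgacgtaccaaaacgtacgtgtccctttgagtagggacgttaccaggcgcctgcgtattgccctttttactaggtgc

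The Ezh2 window holds 3 CCAAT matches and 1 TTTNNCGC match, and the Kdm7a window holds 1 and 0. No matches overlapped. Of all 33469 promoter windows of the same length, 37.5% hold a CCAAT match, 4.92% a TTTNNCGC match and 1.83% a TGACGTCA match. Among the windows of the 65 members found in the table the shares are 44.6%, 13.8% and 3.08%. Those are 1 window per gene, from its most upstream listed start, while the 33469 include every listed start. The sets are therefore unlike, and whether the shares are particular to the members was not tested. The CG dinucleotide that DNA methyltransferases act on occurs 30 times in the Ezh2 window and 21 times in that of Kdm7a. Its median is 22 over the 65 members, against 7 over all windows, again between these unlike sets.

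Among the other lysine methyltransferases, most sat slightly above 0: with the Ezh genes included, 13 of 17 tested were positive, with a median of 0.028, and none was called on its brightest probe set. Kmt2a, which places an activating methyl mark at promoters and is the founding member of the MLL family, ran from 10.40 to 10.48 in ethanol rats and from 10.12 to 10.47 in water rats, with medians of 10.46 and 10.35 (log2 0.11, SE 0.050, adjusted p = 0.411). Its next brightest probe set was at -0.015. Kmt5a, which adds the first methyl group to histone H4 and is needed for chromosome compaction, ran from 10.32 to 10.47 in ethanol and from 10.41 to 10.59 in water rats, with medians of 10.43 and 10.50 (log2 -0.083, SE 0.035, adjusted p = 0.338). The ranges overlapped in both genes. Setd2, which marks transcribed gene bodies, was at 0.060 (SE 0.045).

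Setd4, a SET-domain protein, gave a pattern like that of Ezh1 but in the ethanol group. Ethanol rats 1 and 7 were at 10.65 and 10.69, while the other 5 ethanol rats ran from 9.79 to 10 and the 8 water rats from 9.79 to 9.96. The medians were 9.96 and 9.87, and the difference of 0.25 (SE 0.12) did not pass (adjusted p = 0.435). The within-group SDs of Ezh1 (0.33) and Setd4 (0.26) were the largest among the 73 members, and 2.48% and 4.52% of all probe sets tested had a larger one.

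Arginine methyltransferases were represented by 7 tested genes, 5 of them positive in sign, with a median of 0.017. Prmt2, a coactivator of nuclear hormone receptors, had the third smallest p of all members. It ran from 11.61 to 11.89 in ethanol rats with a median of 11.77, and from 11.44 to 11.73 in water rats with a median of 11.61. All ethanol rats were above the water mean, though ethanol rat 4, at 11.61, lay among the controls. The difference of 0.18 (SE 0.051, 95% interval 0.068 to 0.28) did not pass (adjusted p = 0.143). Prmt5, the main enzyme for symmetric arginine methylation, was at 0.021 (SE 0.038), and the brain-enriched, membrane-anchored Prmt8 was at -0.0050 (SE 0.085).

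Of 5 tested sirtuins, which remove acetyl and related acyl groups with NAD as cosubstrate, 4 were negative in sign, with a median of -0.060, and none was called. Sirt2, a mostly cytoplasmic tubulin deacetylase that is abundant in oligodendrocytes and myelin, ran from 11.93 to 12.25 in ethanol rats with a median of 12.19. In water rats it ran from 12.16 to 12.61 with a median of 12.26. Ethanol rats 1 and 7, at 11.94 and 11.93, lay well below the rest, and the difference of -0.18 (SE 0.068, adjusted p = 0.282) did not pass. Sirt6 and Sirt7, both nuclear, were at -0.072 (SE 0.057) and -0.060 (SE 0.056). Mitochondrial Sirt5 was at 0.043 (SE 0.033) and Sirt3 at -0.021 (SE 0.036).

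The zinc-dependent HDAC enzymes were near 0, with a median of 0.0059 over 10 tested and 7 positive in sign. Hdac2, the class I enzyme that restrains synaptic gene expression in neurons, ran from 11.08 to 11.24 in ethanol rats with a median of 11.16. In water rats it ran from 11.20 to 11.33 with a median of 11.25. All ethanol rats were below the water mean, but the size was -0.089 (SE 0.033, adjusted p = 0.271). Hdac8, which deacetylates cohesin, ran from 7.09 to 7.35 in ethanol and from 7.22 to 7.59 in water rats, with medians of 7.30 and 7.38 (log2 -0.13, SE 0.059, adjusted p = 0.398). Hdac1, the close relative of Hdac2 in the same complexes, was at 0.057 (SE 0.047), and the class IIa enzymes Hdac4 and Hdac5, which shuttle out of the nucleus with neuronal activity, were at 0.010 (SE 0.043) and -0.030 (SE 0.044).

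Acetyltransferases were mostly positive in sign, 6 of 7, with a median of 0.040. The exception was Kat2b (PCAF), a histone acetyltransferase of the SAGA-type complexes. It ran from 11.07 to 11.41 in ethanol rats with a median of 11.26, and from 11.25 to 11.77 in water rats with a median of 11.35. As for Sirt2, ethanol rats 1 and 7 were lowest, at 11.08 and 11.07, and the difference of -0.17 (SE 0.075) did not pass (adjusted p = 0.376). Its paralogue Kat2a was at 0.037 (SE 0.040). Kat6a and Kat6b were at 0.071 each (SE 0.048 and 0.060).

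None of the 5 tested enzymes that add or oxidise methyl groups on DNA was called. Dnmt1, which copies methylation onto newly made strands and is also abundant in neurons, ran from 9.32 to 9.49 in ethanol rats with a median of 9.36, and from 9.20 to 9.40 in water rats with a median of 9.30. The groups overlapped, and the difference of 0.090 (SE 0.036) did not pass (adjusted p = 0.317). The de novo enzyme Dnmt3a was at -0.039 (SE 0.048). Tet1, Tet2 and Tet3, which oxidise methylcytosine as the first step of demethylation, were at -0.056 (SE 0.050), 0.028 (SE 0.054) and -0.036 (SE 0.057).

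Of the 8 genes with a Brd symbol, all but Brd3os are named for bromodomain proteins. Their median was 0.015 and their differences ran from -0.030 to 0.055. Brd9, a subunit of a BAF-type chromatin remodeller, had the smallest p (0.055, SE 0.033, adjusted p = 0.537). Brd2 and Brd3, readers of acetylated tails that recruit the transcription machinery, were at 0.055 (SE 0.040) and 0.037 (SE 0.043).

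**Figure D4:**
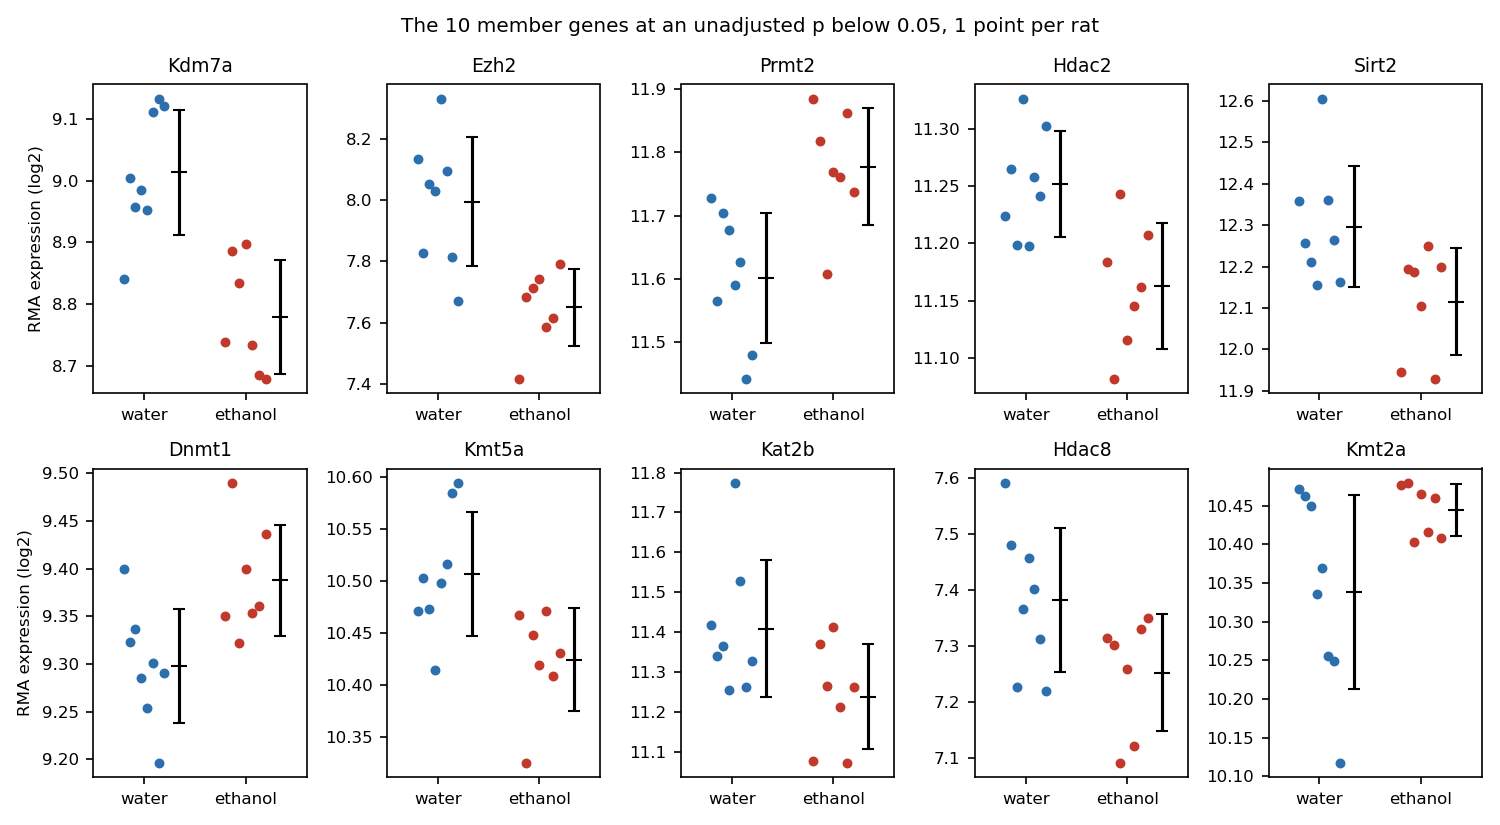
Log2 level in each rat for the 10 members at an unadjusted p below 0.05, with the mean and SD beside each group (n = 8 water, n = 7 ethanol; axes differ and do not start at 0). In Kdm7a only water rat 1, and in Ezh2 only water rat 8, lies inside the ethanol range, and the groups overlap in all 10 panels.

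Other probe sets of these genes gave a mixed picture. Of the 76 genes, 28 had more than 1 probe set, and 32 additional probe sets of 21 genes passed the level filter. The sign of the difference matched that of the brightest probe set in 22 of the 32. Only the second Ezh2 probe set was called among them, 29 had an unadjusted p of 0.05 or above, and the remaining 2 were those of Kdm5b and Kdm5c given above.

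The tissue held the transcripts of its defining cells: Th, the rate-limiting enzyme of dopamine synthesis, was at 14.94 ± 0.22 (SD, n = 7) with ethanol and at 14.80 ± 0.26 (SD, n = 8) with water. Some cell markers moved with the groups, where 0.929% of all probe sets tested were called. Of 14 tested oligodendrocyte and myelin markers 4 fell and none rose, and the mean of the list ran from 12.45 to 12.78 in ethanol and from 12.65 to 13.13 in water rats. Of these 14, 7 were lower and 1 was higher at an unadjusted p below 0.05. Of 5 tested markers of oligodendrocyte precursors, Olig1 fell (log2 -0.28, SE 0.062, adjusted p = 0.0452), and the list ran from 10.97 to 11.18 and from 11.02 to 11.54. Only Olig1 was called among the 5, their median difference was -0.027, and 4 were negative and 1 positive in sign. Of 15 microglial markers 6 rose and none fell, and the list ran from 9.47 to 9.74 and from 9.09 to 9.51. None of the 10 tested dopamine neuron markers passed, but all 10 were positive in sign (median 0.16, 1 at an unadjusted p below 0.05), with list means from 12.58 to 13.27 and from 12.37 to 13.07. No marker was called among 11 of astrocytes, 12 of endothelial and mural cells and 13 of general neurons. At an unadjusted p below 0.05, 3 astrocyte markers were lower (lowest adjusted p = 0.0890). Among 20 proliferation markers 16 were below the level filter, Mki67 at a mean of 4.70 and Top2a at 5.40, and none of the 4 tested was called. In whole tissue, fewer cells of a type and less RNA per cell cannot be told apart.

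The extremes of several members lay in animals that were extreme for the myelin list. Water rat 5 had the highest level of Ezh2 on its 2 brightest probe sets, of Sirt2 and of Kat2b, and also the highest myelin and precursor means. Ethanol rats 1 and 7 had the lowest Sirt2 and Kat2b, the highest Setd4 and the highest dopamine neuron means, and the lowest 2 myelin means of all 15 animals (12.45 and 12.56). Water rat 5 also had the lowest mean of the general neuron markers (11.99). Ethanol rat 7 had the next lowest (12.19), while ethanol rat 1 was at 12.41. The general neuron list was not used as a covariate. When the myelin list mean entered the fit as a covariate, the difference of Sirt2 was -0.011 (adjusted p = 0.926) and that of Kat2b 0.0011 (adjusted p = 0.995). Ezh2 was then at -0.16 on the brightest probe set (adjusted p = 0.276) and -0.28 on the second, where the call ended (adjusted p = 0.0670). Kdm7a was at -0.25, and its call ended too (adjusted p = 0.0661). The rest of the 10 members at an unadjusted p below 0.05 moved both ways in that fit. Hdac2 (-0.12), Kmt5a (-0.10), Dnmt1 (0.10) and Kmt2a (0.12) were farther from 0. Hdac8 (-0.095) and Prmt2 (0.17) were nearer 0, and none of these was called.

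The microglial list mean as a covariate gave other values. Ezh2 was at -0.72 on the brightest probe set (adjusted p = 5.19e-04), Sirt2 at -0.40 (adjusted p = 0.0429) and Kat2b at -0.42 (adjusted p = 0.0468), and all passed, while Kdm7a was at -0.14 (adjusted p = 0.452). Several smaller differences were nearer 0 in that fit: Kmt2a was at 0.011, Kmt5a at -0.0035, Dnmt1 at 0.029 and Prmt2 at 0.11, and Hdac8 was farther from 0, at -0.30 (adjusted p = 0.0880). With the dopamine neuron list, Kdm7a was at -0.20 (adjusted p = 0.0840) and the second Ezh2 probe set at -0.42 (adjusted p = 0.0220). The marker lists themselves lie at different levels in the 2 groups, so each of these fits also removes part of the contrast between ethanol and water. The part of any cell type in the differences of these genes was not tested.

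**Figure D5:**
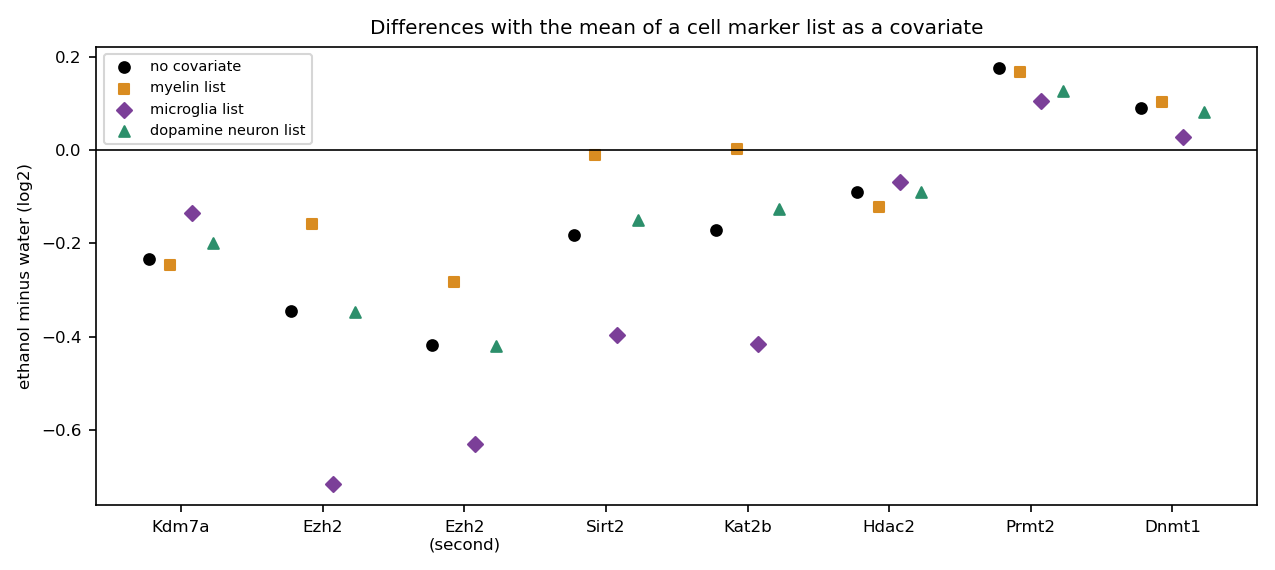
Difference of 7 members, with Ezh2 on 2 probe sets, ethanol minus water in log2 units, without a covariate and with the mean of 1 cell marker list as a covariate. Sirt2 and Kat2b lie near 0 with the myelin list and near -0.4 with the microglial list, while Prmt2 goes from 0.18 to 0.11 and Dnmt1 from 0.090 to 0.029 with the microglial list.

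Partners and cofactor suppliers of these enzymes were described through 9 lists with 152 genes, of which 135 had a probe set and 115 passed the level filter. Of the 115, 1 was called, against a called share of 0.929% over all probe sets tested. At an unadjusted p below 0.05 there were 16 (13.9%), again close to the 12.1% of all probe sets. Of these 16, 6 were higher and 10 lower, where 6.67% of all probe sets were higher and 5.42% lower. The called gene was Acss2, which makes acetyl-CoA from acetate, the product of ethanol breakdown, and supplies histone acetylation in neurons. It fell from 11.85 ± 0.17 (SD, n = 8) to 11.36 ± 0.12 (SD, n = 7), with no overlap between the groups (log2 -0.49, SE 0.072, adjusted p = 0.00278). In the same list of 13 tested suppliers of acetyl groups and NAD, Qprt, an enzyme of NAD synthesis, was at 0.26 (SE 0.075, adjusted p = 0.134). The citrate carrier Slc25a1 and the citrate-cleaving enzyme Acly, which feed the other route to acetyl-CoA, were at -0.23 (adjusted p = 0.195) and -0.12 (adjusted p = 0.215).

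Ezh2 works with other Polycomb proteins. Of 18 tested Polycomb genes none was called, with a median of 0.017. Eed and Suz12, the core subunits without which Ezh2 is inactive, were at -0.022 (SE 0.040) and -0.023 (SE 0.060), and the recruiting factor Jarid2 was at 0.021 (SE 0.037). The members with the smallest p were Cbx7, a reader of the Polycomb mark (0.14, SE 0.040, adjusted p = 0.134), and Pcgf3 (-0.10, SE 0.039, adjusted p = 0.279). Of 9 tested readers and processors of methylated DNA, Gadd45b, an activity-induced factor linked to demethylation, came nearest to the threshold (0.32, SE 0.075, adjusted p = 0.0609). The glycosylase Tdg, which excises oxidised methylcytosine, was at -0.11 (adjusted p = 0.341).

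No gene of the remaining 6 lists passed. Among 16 methyltransferases named otherwise, Smyd3 was at 0.16 (SE 0.044, adjusted p = 0.113) and Dot1l at -0.12 (adjusted p = 0.411). Among 10 subunits of the MLL-type complexes, Wdr5 was at 0.067 and Psip1 at 0.094. Among 10 demethylases and related enzymes named otherwise, Jmjd6 was at -0.068 (adjusted p = 0.315), with groups that did not overlap, and Hr, the hairless corepressor, at -0.22 (adjusted p = 0.327). Among 10 acetyltransferases named otherwise, Hat1 was at -0.038 and Ep300 at -0.041. Among 17 partners of deacetylases, Mta3 was at 0.12 (adjusted p = 0.272) and Gatad2a at 0.041. Among 12 genes of methyl donor metabolism, which sets the supply of S-adenosylmethionine, Mtrr was at -0.090 and Shmt1 at 0.098.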

How the data were processed

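The authors deposited log2 expression levels. The submitters' processing notes name RMA, and its software version is not given in the sources used here. This method corrects background, gives all arrays 1 distribution and summarises each probe set, so shifts common to most transcripts are removed. Per the labels, RNA was amplified in 2 cycles from 25 ng. The 57 control probe sets of 31099 were left out. Each array was 1 rat, and the number of arrays limits the precision. Probe sets were named by the platform annotation kept by GEO: 20826 had 1 symbol, 436 several and 9780 none, and names were taken only from the first. The Entrez number of 75 members was found in a RefSeq table (GRCr8), with the same symbol, and Hdac6 keeps the annotation's name. Probe sets at or above the 40th percentile entered a linear model in R 4.3.3 with limma 3.58.1 (lmFit, eBayes, two-sided, no covariate), a fit tested on simulated data. The members and lists were chosen with earlier results of these data known.

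Named by rule were called members, members at an unadjusted p below 0.05 (at most 12 each way), the smallest p of each symbol family, the Ezh genes, and called genes plus the 2 smallest p of each partner list. Other genes were named after their values were seen. Alternatives covered the level filter, replicate block, array weights, variance model, array centring, probe set choice, cell marker covariates and each array left out.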

Additional observations from a re-analysis of the deposited data

Results flagged for a closer look

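In 2 of the 30 groups of values examined for the named probe sets, 1 rat lay far from the others of its group, and chance gives this in about 5% of groups. Water rat 5 had a Sirt2 level of 12.61, against 12.36 for the next highest control. Ethanol rat 2 had a Kmt5a level of 10.32, against 10.41 for the next lowest ethanol rat.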

How the results depend on the processing

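The count of members called was 1 as reported. It was 0 without a level filter, with the replicate block, and with the myelin or dopamine neuron list as a covariate. It was 2 with array weights and with array median centring (Kdm7a and Ezh2) and 3 with the microglial list as a covariate (Ezh2, Kat2b and Sirt2), all lower in ethanol rats. With 1 array left out it ran from 0 to 1. Members at an unadjusted p below 0.05 numbered 10 as reported (3 higher, 7 lower) and from 7 to 11 with 1 array left out. With the myelin list there were 15, of which 10 were higher and 5 lower (20.5% of members, against 16.9% of all probe sets). In the other alternatives the lower ones outnumbered the higher. The median difference of members was -0.023 with the microglial list, against 0.017, and from 0.0072 to 0.021 with 1 array left out. Kat2b changed sign with the myelin list, at 0.0011. Of 370 values of named probe sets under these alternatives, 346 kept their direction and side of the threshold, 17 lost a call, 6 gained one and 1 changed sign. Over all probe sets the 173 calls became 59 with the replicate block, 297, 285 and 128 with the myelin, microglial and dopamine covariates, and from 100 to 180 with 1 array left out. With the replicate block the call of the second Ezh2 probe set ended (log2 -0.42, adjusted p = 0.0607), as did that of Kdm7a (log2 -0.24, adjusted p = 0.169). A stricter level filter at the 60th percentile left out every Ezh2 probe set, and Kdm7a stayed called (adjusted p = 0.0292). The labels do not say whether animal numbers pair the rats. The correlations of 7 same-numbered pairs ran from -0.41 to 0.29, with 4 of them above 0.1. Of the 7 ethanol rats, 1 correlated best with its own number. These correlations cannot decide whether same-numbered rats shared a litter or a processing run. Signal over background is unknown here.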
